A study of Mus musculus with 13 samples.

Results

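Phka1 and 9 other genes of glycogen breakdown and synthesis were followed, probe set by probe set, in mouse embryonic whole brain (embryonic day 18.5). The genes were the phosphorylase kinase subunits Phka1, Phka2, Phkb, Phkg1 and Phkg2, the glycogen phosphorylases Pygb, Pygm and Pygl, the glycogen synthase Gys1 and the branching enzyme Gbe1. They are 10 of the 18193 genes that the array's annotation names. Every probe set annotated to 1 of these 10 symbols was taken, which gave 16 of the 45037 non-control probe sets on the array. Of these, 12 had a mean signal above the filter of 56.9 that the comparison used, and 4 lay below it. The set was assembled around Phka1, which was chosen by its measured difference between knock-out and wild-type arrays. That contrast is therefore given here as a description, without a test, and nothing is supported with it.

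The 13 arrays held 6 wild-type embryos and 7 Meg3 knock-out embryos, 1 embryo per array, from 5 litters. Meg3 is an imprinted non-coding transcript made from the maternal copy of chromosome 12. The labels name no allele, deleted part, transmitting parent, strain or sex. Litter 148 gave 1 knock-out embryo and no wild-type one, and litters 219, 238, 250 and 262 gave both genotypes.

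Glycogen is the cell's glucose store. Glycogen phosphorylase removes glucose units from it, and phosphorylase kinase switches phosphorylase on when calcium or cyclic AMP rises. The kinase includes regulatory alpha subunits (Phka1, the form typical of muscle, or Phka2, the form typical of liver), a regulatory beta subunit (Phkb) and a catalytic gamma subunit (Phkg1 in muscle, Phkg2 in liver and testis). In mature brain most glycogen lies in astrocytes, where the brain form of phosphorylase (Pygb) and the muscle form (Pygm) are both known.

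Phka1 and Phka2 encode alternative alpha subunits and both lie on the X chromosome, so their start regions are shown side by side. Each run covers 250 bases before and 50 bases after the start of the gene, from RefSeq's table for GRCm38.p6, 5′ to 3′ on the gene's own strand. The Phka1 region is chrX:102644197-102644496 on the minus strand and the Phka2 region is chrX:160501912-160502211 on the plus strand. Capitals mark the GC box GGGCGG, read on both strands.
Phka1: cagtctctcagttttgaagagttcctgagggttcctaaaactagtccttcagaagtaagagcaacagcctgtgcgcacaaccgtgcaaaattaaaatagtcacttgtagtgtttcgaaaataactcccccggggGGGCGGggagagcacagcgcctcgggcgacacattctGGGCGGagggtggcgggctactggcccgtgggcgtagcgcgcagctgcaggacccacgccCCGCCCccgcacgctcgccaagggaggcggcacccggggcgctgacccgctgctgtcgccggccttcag
Phka2: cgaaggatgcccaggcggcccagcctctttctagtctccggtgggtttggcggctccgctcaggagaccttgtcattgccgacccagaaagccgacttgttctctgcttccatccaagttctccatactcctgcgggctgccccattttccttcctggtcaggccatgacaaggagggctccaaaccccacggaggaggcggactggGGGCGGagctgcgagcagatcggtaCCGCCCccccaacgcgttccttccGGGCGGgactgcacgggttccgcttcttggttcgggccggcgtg
Both regions held 3 GC boxes, a motif present in 35.7% of the 32851 start regions of the table. Their GC content was 62.7% for Phka1 and 64.3% for Phka2, beside a median of 52.7% over all start regions. The hypoxia core GCGTG had 2 matches in Phka1 and 1 in Phka2 (32.4% of all start regions hold it), and the other core, ACGTG, had none in either (19.6% hold it). Neither region held TATAAA or CCAAT, which 13.6% and 37.4% of all start regions hold. All 10 genes had an entry, and the GC box was found in 7 of them (Gbe1, Gys1, Phka1, Phka2, Phkb, Phkg2 and Pygl). ACGTG was found in 3 of the 10, the phosphorylase genes Pygb, Pygm and Pygl. GCGTG was found in 6 of the 10, these 3 and Phka1, Phka2 and Phkb. The cyclic AMP element core TGACG was found in 3 of the 10 (Phkb, Pygb and Pygl), and 20.8% of all start regions hold it. These are matches of letters in the window, not binding sites.

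Before the results, 2 arrays stood apart in RNA quality, read from the ratio of the 3' to the 5' control probe set of Actb. It was 2.92 in wild-type 2 and 1.81 in knock-out 1, and 1.32 to 1.495 in the other 11 arrays. Meg3 bore out the labels, with signals of 3109 to 6251 in wild-type and 264 to 589 in knock-out arrays for its brightest probe set. Xist, which coats the inactive X in females, had a signal above 1000 in 2 of 6 wild-type and 3 of 7 knock-out arrays. Over all 27022 probe sets tested, 0 were higher and 17 lower in knock-out brains at a limma adjusted p under 0.05. The median log2 difference over all of them was 0.08, and 72.5% had a higher mean in knock-out arrays.

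Phka1, the muscle-type alpha subunit, had a higher mean signal in knock-out than in wild-type brains on all 3 of its probe sets. The ratios on the log2(signal + 16) scale were 1.51-fold for probe set 1435567_at, 1.33-fold for 1422744_at and 1.26-fold for 1422743_at. Among the 12 probe sets above the filter these were the 3 with the highest log2 difference. Phka1 was chosen for this contrast, so the ranking is a description.

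For 1435567_at the wild-type signals had a lowest value of 97.6, a median of 111.5 and a highest value of 182.8. The knock-out signals had a lowest value of 164.9, a median of 194.1 and a highest value of 224.4. The groups overlapped through a single wild-type array: wild-type 6 of litter 262 stood above the 3 lowest knock-out arrays, and the other 5 wild-type arrays lay below every knock-out array. The means were 125.1 ± 34.3 (SD, n = 6) in wild-type and 194.1 ± 24.6 (SD, n = 7) in knock-out brains, a log2 difference of 0.60 ± 0.15 SE (95% interval 0.29 to 0.91). This SE and interval, and those of the same fit below, leave litter out and treat embryos that share a litter as independent.

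In the other Phka1 probe sets the groups overlapped more widely. Signals of 1422744_at ran from 46.4 through a median of 73.1 to 104.5 in wild-type arrays, and from 61.5 through 105.9 to 145.6 in knock-out arrays. In that probe set 4 of 7 knock-out arrays stood above every wild-type array, while knock-out 1 lay among the low wild-type arrays. Its log2 difference was 0.41 ± 0.19 SE (95% interval 0.01 to 0.81). Signals of 1422743_at ran from 54.2 through 145.5 to 190.5 in wild-type arrays and from 110.2 through 165.4 to 216.0 in knock-out arrays. Here only knock-out 7 stood above every wild-type array, both wild-type arrays of litter 219 lay below every knock-out array, and the log2 difference was 0.34 ± 0.22 SE (95% interval -0.13 to 0.81).

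**Figure D1:**
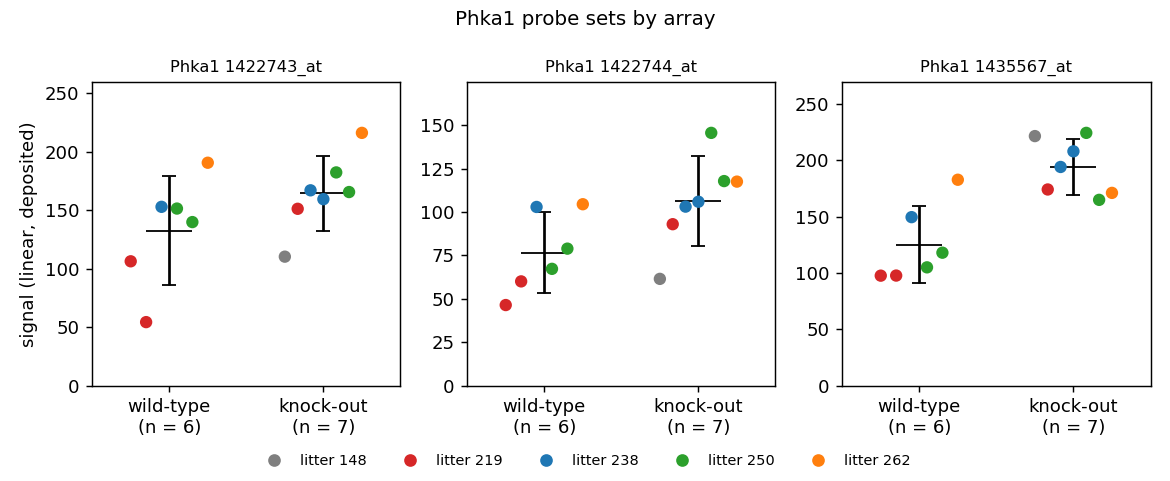
Deposited linear signal of the 3 Phka1 probe sets on each array, by genotype, with points coloured by litter and black bars for the mean ± SD of each group. In 1435567_at the knock-out arrays lie between 164.9 and 224.4 with wild-type 6 at 182.8 among them, and in the other panels the 2 wild-type arrays of litter 219 and the knock-out array of litter 148 are low.

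Within litters the Phka1 difference was uneven. For 1435567_at the log2 difference between the knock-out and wild-type mean was 0.74 for litter 219, 0.39 for 238, 0.71 for 250 and -0.09 for 262. For 1422744_at it was 0.66, 0.02, 0.73 and 0.15 in the same order, and for 1422743_at it was 0.85, 0.09, 0.23 and 0.17. The difference was therefore higher in 3 of 4 litters for the first probe set and in 4 of 4 for the others, with litter 238 at 0.09 or below in both of the others. With litter as a block in the fit, the log2 difference of 1435567_at was 0.50 ± 0.14 SE. It was 0.44 ± 0.14 SE for 1422744_at and 0.33 ± 0.16 SE for 1422743_at. Without litter 219 the log2 differences were 0.48 for 1435567_at, 0.24 for 1422744_at and 0.05 for 1422743_at. The wild-type arrays of that litter also had the lowest median signals over all non-control probe sets, 82.9 and 86.0. The part of this in the Phka1 values was not tested. Without wild-type 2 alone, the array with the highest Actb ratio, the log2 difference of 1422743_at was 0.14. It was also 0.14 with the Actb ratio as a covariate, where 1422744_at stood at 0.34 and 1435567_at at 0.57.

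**Figure D2:**
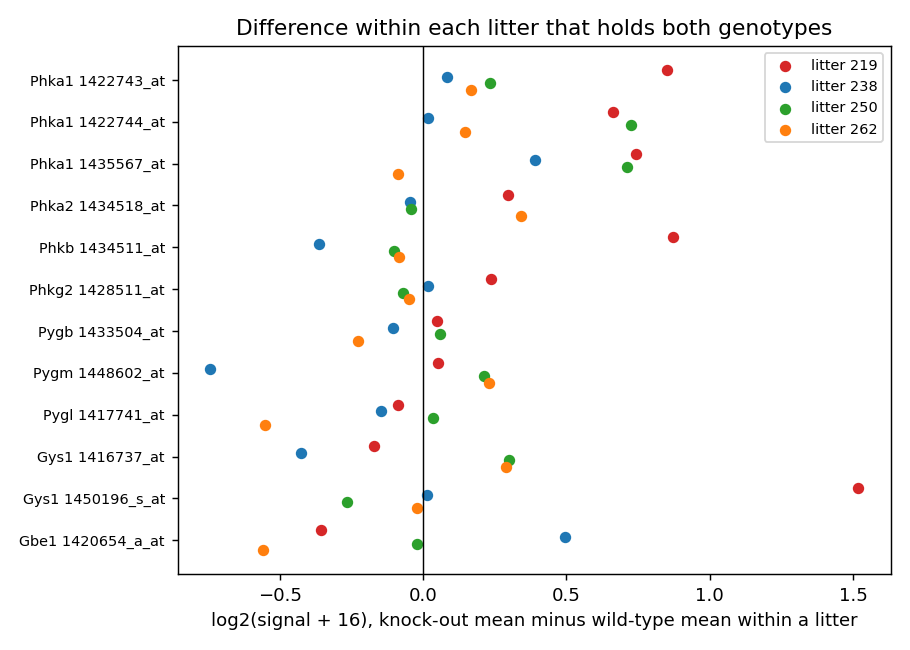
Knock-out mean minus wild-type mean of log2(signal + 16) within each of the 4 litters that hold both genotypes, 1 row per probe set above the filter and 1 coloured point per litter. Phka1 points lie above 0 except litter 262 in 1435567_at (-0.09), while the other genes have points on both sides of 0.

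Agreement between the 3 Phka1 probe sets over the arrays was read in each group on its own. The permutation tests treat the arrays of a group as exchangeable, although wild-type 1 and 2 share litter 219, wild-type 4 and 5 and knock-out 5 and 6 share litter 250, and knock-out 3 and 4 share litter 238, so their p-values may be too small. Among wild-type arrays 1435567_at and 1422744_at went together (Pearson r = 0.916, Spearman rho = 1.00, n = 6, exact permutation p = 0.00278 for both, adjusted p = 0.0167 over 6 relations). Leaving out the 2 arrays farthest from the group's median of 1422744_at gave r = 0.998, a value that rests on few arrays. Among knock-out arrays the same pair had r = -0.197 and rho = -0.107 (n = 7, exact permutation p = 0.711 and 0.840, adjusted 0.711 and 0.840), and r = -0.337 without the 2 farthest arrays. Knock-out 1 was the second highest knock-out array in 1435567_at, at 221.6, and the lowest in 1422744_at, at 61.5, and in 1422743_at, at 110.2. That array also had the second highest Actb ratio of the series. Without knock-out 1 the log2 differences between genotypes were 0.57, 0.51 and 0.42 in the order 1435567_at, 1422744_at, 1422743_at. Without wild-type 2 and knock-out 1 together they were 0.51, 0.47 and 0.22.

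The remaining correlations among Phka1 probe sets did not pass at an adjusted p under 0.05 over the 6 relations. The lowest, an exact permutation p of Pearson's r, was 0.05 after adjustment, at the threshold and not under it. In the pairs below the 2 farthest arrays were taken by distance from the group's median of 1422743_at. Between 1422743_at and 1435567_at r was 0.714 and rho 0.886 in wild-type arrays (n = 6, exact permutation p = 0.0167 and 0.0333, adjusted 0.05 and 0.0667), with r = 0.823 without the 2 farthest arrays. In knock-out arrays that pair had r = -0.429 and rho = -0.179 (n = 7, exact permutation p = 0.369 and 0.713, adjusted 0.442 and 0.840), and r = 0.608 without the 2 farthest arrays. Between 1422743_at and 1422744_at r was 0.658 and rho 0.886 in wild-type arrays (n = 6, exact permutation p = 0.164 and 0.0333, adjusted 0.246 and 0.0667) and r = 0.610 without the 2 farthest. In knock-out arrays it was 0.862, with rho 0.750 (n = 7, exact permutation p = 0.0444 and 0.0663, adjusted 0.0889 and 0.0994), and 0.929 without the 2 farthest. Whether these agreements differ between genotypes was not tested.

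Being on the X chromosome, Phka1 was also set beside Xist. With log2 Xist signal as a covariate its log2 differences were 0.59, 0.42 and 0.33 for 1435567_at, 1422744_at and 1422743_at. Its nearest measured neighbours on the X chromosome showed small differences of both signs. On the side of lower coordinates the histone deacetylase gene Hdac8 had a log2 difference of -0.03 (95% interval -0.39 to 0.32), Cited1 of -0.07, the ribosomal protein gene Rps4x of -0.02 and Ercc6l of -0.01. On the other side Gm9112 stood at 0.08, Dmrtc1a at 0.13, Gm5126 at 0.06 and the histone chaperone gene Nap1l2 at 0.04 (95% interval -0.27 to 0.35). All 8 intervals held 0, and each limma adjusted p over all probe sets was 1.00.

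Phka2, the liver-type alpha subunit, had 1 probe set above the filter, 1434518_at. Its wild-type signals ran from 240.9 through a median of 327.4 to 367.4 and its knock-out signals from 304.2 through 353.9 to 438.6. The groups overlapped, with knock-out 1 at the top of the series and wild-type 6 at the bottom. The log2 difference was 0.15 ± 0.12 SE (95% interval -0.10 to 0.41). Inside litters 219 and 262 the differences were 0.30 and 0.34, and inside litters 238 and 250 both were -0.04. Its sign turned to -0.04 after median centring, when the median of all probe sets stood at -0.12. The other Phka2 probe sets lay far below the filter, at signals of 3.49 to 13.5 for 1430492_at and 1.57 to 30.3 for 1437941_at over all arrays.

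Phkb, which encodes the beta subunit, had means that differed by less than the spread within either group. The signal was 355 ± 120.6 (SD, n = 6) in wild-type and 350.4 ± 91.5 (SD, n = 7) in knock-out brains, a log2 difference of 0.03 (95% interval -0.52 to 0.59). The lowest array was wild-type 1, at 134.5, and the next was knock-out 1, at 208.8, while the other 11 lay between 288 and 474. Wild-type 1 comes from litter 219, where the knock-out mean was higher by 0.87, and in the other litters the differences were -0.36, -0.10 and -0.08. Without wild-type 1 the Phkb log2 difference was -0.21 ± 0.18 SE, and without litter 219 it was -0.27 ± 0.20 SE.

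Of the catalytic subunits, Phkg2 was above the filter and Phkg1 was not. Phkg2 had signals of 822 to 1242 in wild-type arrays (median 1095) and of 899 to 1309 in knock-out arrays (median 1114), almost the same range. Its log2 difference was 0.07 ± 0.12 SE (95% interval -0.19 to 0.34), close to the median of all probe sets. Both Phkg1 probe sets, for the muscle-type catalytic subunit, stayed at signals of 1.04 to 40.9 over the 13 arrays.

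The 3 phosphorylases had similar signals in both genotypes. Pygb, the brain form, ran from 2053 through a median of 2864 to 3263 in wild-type arrays and from 2228 through 2937 to 3284 in knock-out arrays. Its log2 difference was 0.05 ± 0.13 SE (95% interval -0.23 to 0.34), and wild-type 2 held its lowest value. Pygm, the muscle form, had a mean of 112.0 ± 34.1 (SD, n = 6) in wild-type and 109 ± 20.9 (SD, n = 7) in knock-out brains, with a log2 difference of -0.01 (95% interval -0.35 to 0.33). The highest Pygm value of the series was wild-type 3, at 176.5, and the log2 difference in its litter 238 was -0.74, against 0.05, 0.21 and 0.23 in litters 219, 250 and 262. Pygl, the liver form, lies on chromosome 12, as Meg3 does, and had a log2 difference of -0.08 (95% interval -0.39 to 0.24). Its signals were 190.8 to 319.5 in wild-type and 182.3 to 304.2 in knock-out arrays.

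**Figure D3:**
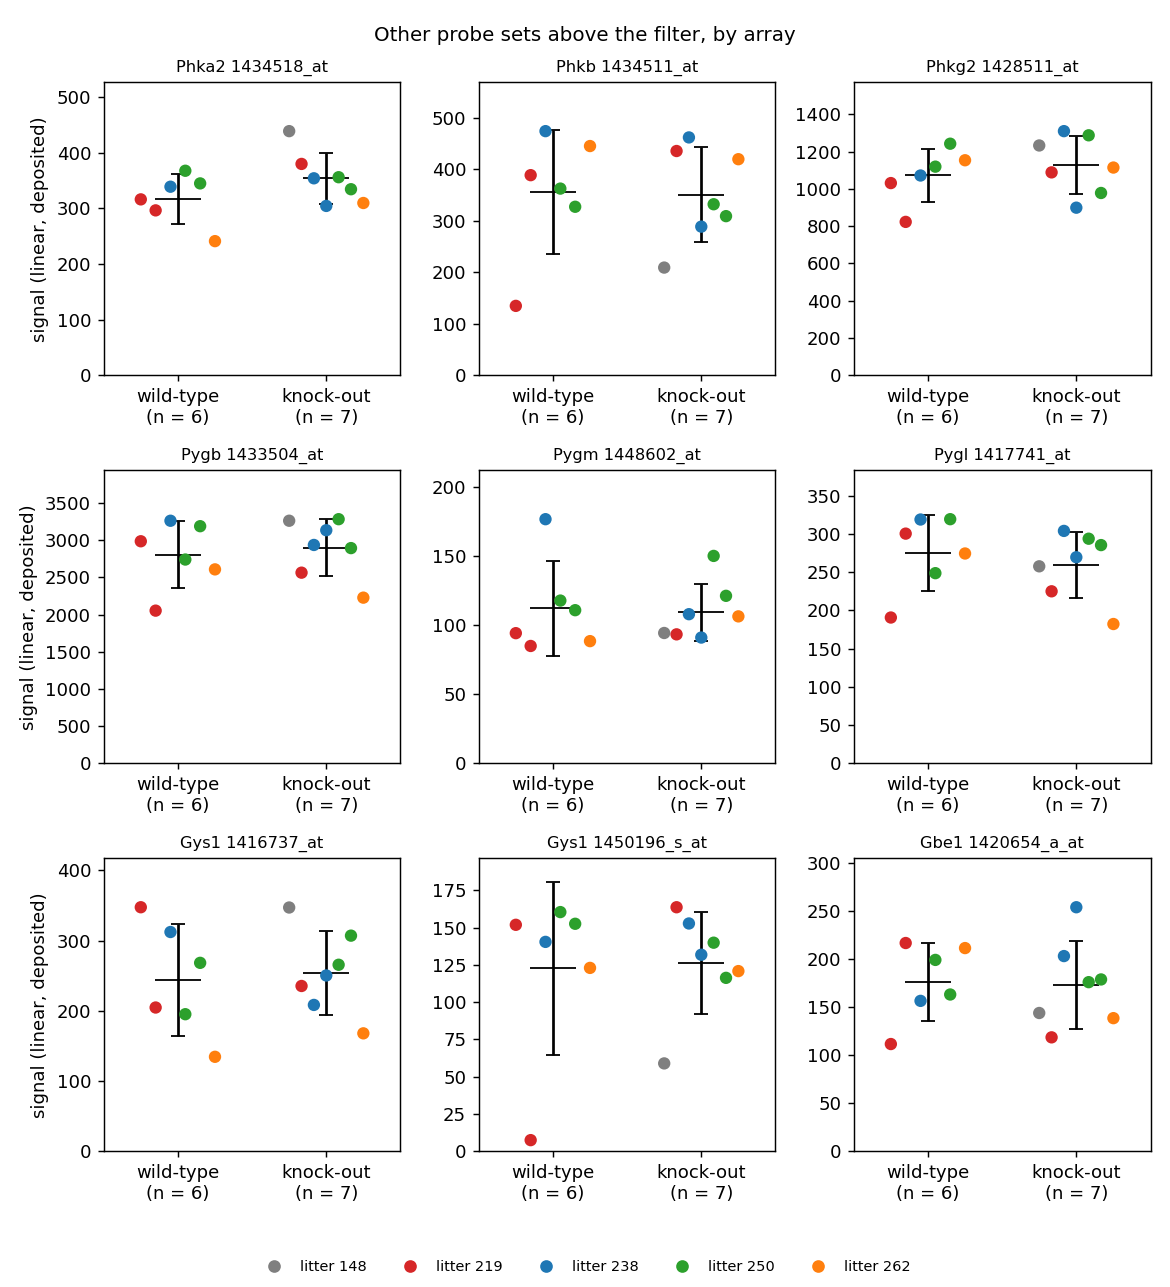
Deposited linear signal of the 9 other probe sets above the filter on each array, by genotype, with points coloured by litter and black bars for the mean ± SD. In each panel the groups overlap, and the lowest Gys1 1450196_s_at value (7.46, wild-type 2) and the lowest Phkb value (134.5, wild-type 1) stand apart from the rest of their group.

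Gys1, the glycogen synthase of muscle and brain, had 2 probe sets whose lowest arrays differed. The first, 1416737_at, ran from 134.5 through a median of 236.5 to 347.5 in wild-type and from 167.9 through 250.3 to 347.1 in knock-out arrays, with a log2 difference of 0.09 ± 0.21 SE. The second, 1450196_s_at, carries the suffix that Affymetrix gives to probe sets whose probes can match more than 1 gene. It lay between 116.3 and 163.7 in 11 arrays, at 58.9 in knock-out 1 and at 7.46 in wild-type 2. These are the 2 arrays with the highest Actb ratios, whereas 1416737_at stood at 347 in knock-out 1 and 205 in wild-type 2, inside the range of the others. Its log2 difference over all arrays, 0.24 ± 0.41 SE, had the widest interval of the set (95% interval -0.65 to 1.12). Its sign turned without wild-type 2, to -0.22 ± 0.19 SE, without litter 219, to -0.27 ± 0.21 SE, and without wild-type 2 and knock-out 1 together, to -0.08 ± 0.11 SE. With the Actb ratio as a covariate it was -0.19 ± 0.13 SE.

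Gbe1, the branching enzyme, ran from 111.5 through a median of 181.0 to 216.6 in wild-type and from 118.5 through 175.9 to 253.8 in knock-out arrays. Its log2 difference was -0.03 ± 0.18 SE (95% interval -0.42 to 0.36), and it had both signs within litters (-0.36, 0.50, -0.02 and -0.56 for 219, 238, 250 and 262).

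**Figure D4:**
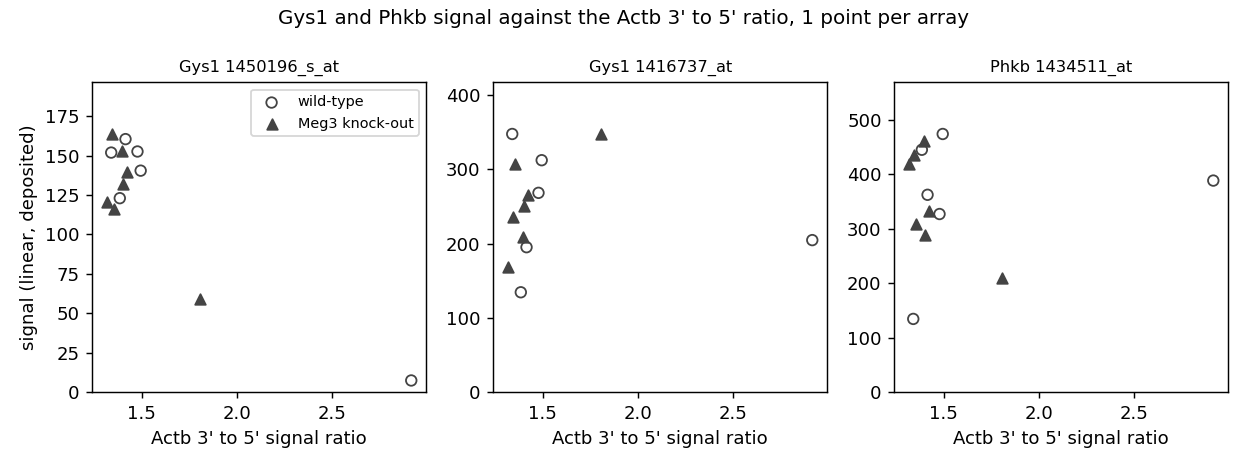
Deposited linear signal of both Gys1 probe sets and of Phkb plotted against the Actb 3' to 5' ratio, 1 point per array, open circles for wild-type and filled triangles for knock-out. The 2 arrays with ratios of 1.81 and 2.92 hold the lowest values of Gys1 1450196_s_at but not of Gys1 1416737_at.

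Counted together, 9 of the 12 probe sets above the filter had a higher and 3 a lower mean in knock-out brains, against 72.5% higher over all probe sets tested. Their median log2 difference was 0.08, as over all probe sets, and without Phka1 it was 0.05 over 9 probe sets. At a limma adjusted p under 0.05, 0 of the 12 were called, beside 0.0629% of all probe sets. With no adjustment 2 had a limma p under 0.05, both of Phka1 and both higher, beside 3.76% of all probe sets that were higher at that p. For 0 of the 12 did the groups fail to overlap, beside 0.133% of all probe sets. Because the contrast took part in the choice of the genes, nothing is read from these counts. In whole tissue, fewer cells of a type and less RNA per cell cannot be told apart.

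**Figure D5:**
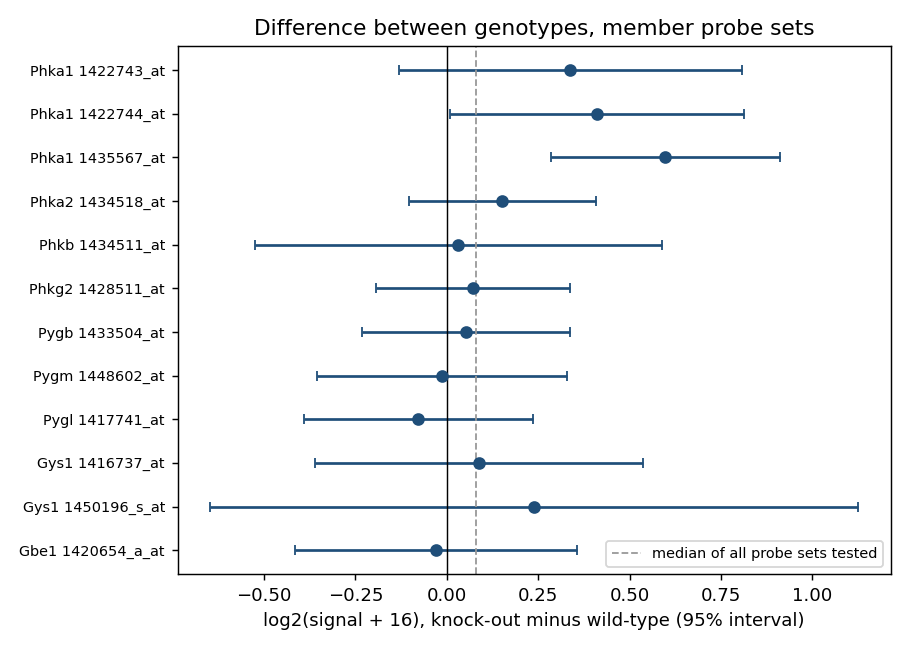
Knock-out minus wild-type difference of log2(signal + 16) with its 95% interval from the limma fit, for the 12 probe sets above the filter, with a dashed line at the median of all probe sets tested (0.08). Values are as deposited, with no further scaling, and the fit leaves litter out. The 3 Phka1 probe sets lie at 0.34, 0.41 and 0.60, and the interval of the first of these, 1422743_at, holds 0. The other 9 lie between -0.08 and 0.24 with intervals that hold 0.

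Differences between litters took no part in the choice of the genes and could be tested. In a fit of litter and genotype, 0 of the 12 probe sets differed between the 5 litters at a limma adjusted p under 0.05, beside 0.0407% of all probe sets. At an unadjusted p under 0.05 there were 2, beside 19.2% of all probe sets. These were Phka1 1422743_at (F = 4.43, limma adjusted p = 0.196) and Phka1 1422744_at (F = 4.38, limma adjusted p = 0.199). In both of these knock-out 1 was the lowest knock-out array. Litter 148 is that array alone, so its litter term cannot be told apart from the array's RNA quality. The adjusted p of the other 10 ran from 0.294 for Gys1 1416737_at to 0.815 for Phkg2. Over 9 other settings with this test the lowest adjusted p of any of the 12 was 0.116, for Phka1 1422744_at after quantile normalization.

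The other genes of glycogen metabolism were taken from a list of 39 symbols, of which 31 had a probe set above the filter. Of their 68 probe sets 57 had a higher and 11 a lower mean in knock-out brains, against 72.5% higher over all probe sets. At a limma adjusted p under 0.05, 0 passed (0.0629% of all probe sets), and 0 were under 0.05 unadjusted (3.76% of all higher and 0.204% lower). Their median log2 difference was 0.10, against 0.08 over all probe sets. The smallest unadjusted p belonged to Gsk3b, the kinase that inhibits glycogen synthase. Gsk3b 1437001_at had a signal of 1040.0 ± 310 (SD, n = 6) in wild-type and 1313 ± 259 (SD, n = 7) in knock-out brains, with a log2 difference of 0.38 ± 0.21 SE. Gsk3b 1439931_at stood at 0.46 ± 0.28 SE, and the 6 Gsk3b probe sets ranged from -0.04 to 0.46. Ppp1r3e, a subunit that targets protein phosphatase 1 to glycogen, had a log2 difference of -0.39 ± 0.23 SE on 1456807_at and of -0.18 on its other probe set. Of the regulatory subunits of protein kinase A, which acts upstream of phosphorylase kinase, the probe sets with the smallest p had log2 differences of 0.21 ± 0.14 SE (Prkar2b 1456475_s_at), 0.20 ± 0.13 SE (Prkar2b 1438664_at) and 0.22 ± 0.14 SE (Prkar1b 1440133_x_at). Over all their probe sets above the filter the log2 differences ran from 0.04 to 0.21 for Prkar2b, 0.02 to 0.40 for Prkar1b, -0.02 to 0.13 for Prkar1a and -0.06 to 0.37 for Prkar2a. The limma adjusted p of each was 1.00.

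The genes whose pattern over the 13 arrays was most like that of Phka1 1435567_at were Pard3b (Pearson r = 0.884), Lgi3 (0.867), Dstyk (0.864), Samd5 (0.860) and Ern1 (0.844). They were the highest of all other named probe sets above the filter, and all 13 arrays, with their genotype difference, enter each r. For 4 of the 5 another probe set of the same gene was measured, with r as low as 0.290 for Pard3b, 0.287 for Lgi3, 0.419 for Dstyk and 0.406 for Ern1. Among the glycogen genes r with 1435567_at was 0.685 and 0.569 for the other Phka1 probe sets, 0.405 for Phkg2, 0.358 for Pygb and between -0.02 and 0.24 for the rest.

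Markers of other cell types were read on the same arrays. Of 10 skeletal muscle genes 5 (Myh3, Myh8, Tnnt3, Tnnc2 and Myog) had no probe set above the filter, and the summed signal of the 5 probe sets above it was 611 to 793 in wild-type and 615 to 1167 in knock-out arrays. Of 6 liver genes Alb, Afp, Apob and Fgb lay below the filter, and the 2 probe sets above it summed to 90.7 to 191 in wild-type and 101 to 240 in knock-out arrays. Of 17 astrocyte and radial glia probe sets above the filter 13 had a higher and 4 a lower mean, and their summed signal was 32780 to 41642 in wild-type and 35043 to 39758 in knock-out arrays. All 10 choroid plexus probe sets above the filter had a lower mean in knock-out brains, against 72.5% higher over all probe sets. These 10 come from only 5 genes, and probe sets of the same gene are not independent readings. Their summed signal was 67944 to 118810 in wild-type and 23100 to 96795 in knock-out arrays, so the groups overlapped. The 17 neuron probe sets summed to 86184 to 123589 in wild-type and 86214 to 129934 in knock-out arrays, and the 2 red cell probe sets above the filter to 241 to 1629 and 342 to 1624. In these 6 lists 0 probe sets passed the limma test between genotypes at an adjusted p under 0.05, beside 0.0629% of all probe sets. At an unadjusted limma p under 0.05, 1 red cell probe set was higher, beside 3.76% of all probe sets. The part of these cell types in the Phka1 values was not tested.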

How the data were processed

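Affymetrix arrays were read from the deposited value table of the series, 1 column per embryo. Per the labels' protocols, 5 µg of total RNA was turned into biotinylated cRNA by the one-cycle procedure. The value table as deposited holds intensities on a linear scale, and no source used here names the software or scaling behind them. The mean after trimming 2% at each end was 453.5 to 539.5 per array. The median signal of the non-control probe sets ran from 82.9 in wild-type 1 to 124.3 in knock-out 1. The number of arrays limits the precision.

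Groups and replicate numbers came from the titles, and litters from the leading number of the embryo labels. Intensities became log2(signal + 16), so ratios of weak probe sets are understated. Of 45037 non-control probe sets, 27022 had a mean above the 40th percentile and were fitted one by one with lmFit and eBayes (limma 3.58.1, R 4.3.3), two-sided. P-values were adjusted over all of them by Benjamini-Hochberg, with a threshold of 0.05. Litters were tested with limma's moderated F in a fit with genotype. Correlations used exact permutation in scipy 1.17.1, two-sided. Probe sets were named from GEO's platform annotation, and neighbours from the RefSeq gene table of GRCm38.p6. Both tests were checked on simulated data, made by shuffling each probe set's deviations from the fit of litter and genotype over the arrays. For the genotype test these data held no litter effect, so the check cannot speak to embryos that share a litter. Shuffling each probe set on its own also removed deviations shared across an array, so the check cannot speak to those either.

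The genes, lists and tests were chosen with earlier results of these data known. Named are all member probe sets, the 6 other glycogen probe sets with the smallest p, 4 neighbours on each side of Phka1 and the 5 genes most like it. Alternatives changed the scaling, pseudocount, filter, block, covariates or arrays used.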

Additional observations from a re-analysis of the deposited data

Results flagged for a closer look

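Each group of 6 or 7 arrays was searched for a single array far from the others, over 32 probe sets named in the text and so 64 groups, where chance marks about 1 group in 20. It marked 3 groups, about as many as that share of 64 gives. All 3 are among the 24 groups of the glycogen probe sets. Each gap was measured on the log2(signal + 16) scale, as a share of the group's range on that scale. The signals quoted with the gaps are linear, so the gaps are not shares of the linear ranges. Whether linear signals would mark the same groups was not tested. Gys1 1450196_s_at was low in wild-type 2, at 7.46 against 123 to 160.4 in the other wild-type arrays, with a gap of 0.882 of the group's range. The same probe set was low in knock-out 1, at 58.9 against 116.3 to 163.7, with a gap of 0.650 of the range. These are the arrays with Actb 3' to 5' ratios of 2.92 and 1.81. Phkb was low in wild-type 1, at 134.5 against 327 to 474 in the other wild-type arrays, with a gap of 0.698 of the range, and the Actb ratio of that array was 1.34.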

How the results depend on the processing

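Probe sets lower in knock-out brains numbered 17 (11 of Meg3, 3 of Rian, 2 of Mirg and 1 unnamed). They numbered 3 with 1 probe set per gene, where fewer are tested, and 22 with no filter, where more are. With the replicate block there were 9, and without litter 250 there were 12. Those higher numbered 0, with 3 under no filter (Asah2 and 2 unnamed) and 1 without litter 238 (Serpina3n), all named after their values were seen. Leaving out single arrays gave 15 to 17 lower and 0 to 1 higher, the 1 being Serpina3n without wild-type 3 and Mphosph9 without wild-type 6. The replicate numbers share litters in only 3 of 6 pairs and correlate at -0.43 to 0.20, so they do not pair the arrays, and 0 of 6 wild-type arrays correlated best with their own number. Probe sets that differ between litters numbered 11, and 977 after quantile normalization, 646 after median centring, 71 after trimmed mean scaling, 31 and 7 with pseudocounts of 1 and 64, 21 with the Actb ratio and 6 with Xist as a covariate. The cause was not tested. The sign of the 9 glycogen probe sets other than Phka1 turned in 1 (Phka2, Pygl) to 11 (Gbe1) of 28 or 29 alternatives. Phka1 was chosen on this contrast, so its sign is not counted. After median centring its log2 differences were 0.40 ± 0.14, 0.21 ± 0.19 and 0.14 ± 0.20 SE (1435567_at, 1422744_at, 1422743_at). After quantile normalization they were 0.43 ± 0.13, 0.22 ± 0.19 and 0.17 ± 0.21 SE in the same order. The median of all probe sets was -0.12 after median centring and -0.01 after quantile normalization.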
